A study of Mus musculus with 24 samples.

Results

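Pools of expanded mouse blastocysts carrying the code HC2 were compared with pools carrying the code HC3. The 4 HC2 pools and the 4 HC3 pools, recognised by the code in their titles, are 8 of the 24 pools profiled. The study covers 6 codes with 4 pools each, and its title names the plastic monomer bisphenol A, which binds estrogen receptors, together with the membrane estrogen receptor. Each HC2 and HC3 pool held 15 frozen blastocysts, and RNA of each pool was labelled with Cy3 and hybridised to one Agilent array. The labels name neither the treatment behind HC2 or HC3 nor a control, and give no strain, genotype, dose or embryo age, so HC2 minus HC3 is a difference between codes. The labels do not tie the pools of a code to separate animals or matings, and the p-values therefore measure the spread between pools, which may be technical.

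The expanded blastocyst is the last stage before implantation. Its outer layer, the trophectoderm, pumps fluid into the cavity and later attaches to the uterus, while the inner cell mass separates into epiblast, the source of the fetus, and primitive endoderm, a yolk sac precursor. Genes such as the Zscan4 family are transcribed in a burst at the 2-cell stage, when the embryonic genome is switched on, and are largely silent by the blastocyst stage. Estrogen acts through the nuclear receptors alpha and beta, encoded by Esr1 and Esr2, and through a membrane receptor encoded by Gper1.

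All values are normalized log2 signals, the log2 processed signal of a gene's brightest probe minus the 75th percentile of its array, and a difference of 1 is a doubling. A probe is called well above background by the scanner software's own flag. That flag was set for 42.6% to 47.7% of the spots of an HC2 array, against 43.9% to 47.3% for an HC3 array. Across genes, an HC2 with an HC3 array correlated with a median r of 0.976, against 0.975 for arrays of the same code. Markers of the tissue were present: all 5 epiblast, 5 trophectoderm and 5 primitive endoderm markers had a probe well above background on all 8 arrays. The number of arrays limits the precision.

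Factors of the 3 blastocyst lineages were well above background in HC2 and HC3 alike, and the codes overlapped for each factor described here other than Sox17. In pooled embryos, fewer cells of a type and less RNA per cell cannot be told apart. Cdx2, the transcription factor that defines the trophectoderm, had signals of 5.28, 5.31, 5.46 and 5.23 in HC2 pools 1 to 4, against 5.08, 4.89, 5.37 and 5.47 in HC3 pools 1 to 4. Every HC2 value lay inside the HC3 range, and the fitted difference was 0.12 with a 95% interval of -0.31 to 0.54. Gata3, a second trophectoderm factor, averaged 7.10 ± 0.21 in HC2 and 7.19 ± 0.15 in HC3 (SD, n = 4 each).

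Nanog, a factor of the epiblast, had signals of 1.43, 1.42, 0.80 and 0.72 in the HC2 pools and 0.70, 1.34, 0.98 and 1.12 in the HC3 pools. HC2 pools 1 and 2 were the highest of the 8, HC2 pools 3 and 4 were among the lowest 3, and the codes overlapped. The difference of 0.06 had an interval of -0.42 to 0.54, and a second Nanog probe, also well above background on all 8 arrays, gave -0.27, so the 2 probes differ in sign. Pou5f1, needed throughout the inner cell mass, averaged 3.63 ± 0.19 in HC2 and 3.60 ± 0.17 in HC3. Sox2, its partner factor, averaged 1.73 ± 0.29 in HC2 and 1.72 ± 0.12 in HC3 (SD, n = 4 each).

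Of the primitive endoderm factors, Gata6 averaged 4.90 ± 0.14 in HC2 and 4.96 ± 0.10 in HC3. Sox17, which acts later in that lineage, had 1.39, 1.33, 1.42 and 1.48 in the HC2 pools and 1.51, 1.49, 1.68 and 1.48 in the HC3 pools. The HC3 values lay at or above the highest HC2 value, by less than 0.1 except in HC3 pool 3, and the fitted difference was -0.13 with an interval of -0.47 to 0.20 (limma unadjusted p = 0.409). Over the lists, 10 of 23 epiblast genes tested were higher in HC2 with a median difference of -0.03, as were 10 of 21 trophectoderm genes with a median of -0.01 and 8 of 23 primitive endoderm genes with a median of -0.08. Over all 18448 genes tested, 44.0% were higher in HC2 and the median difference was -0.02.

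**Figure D1:**
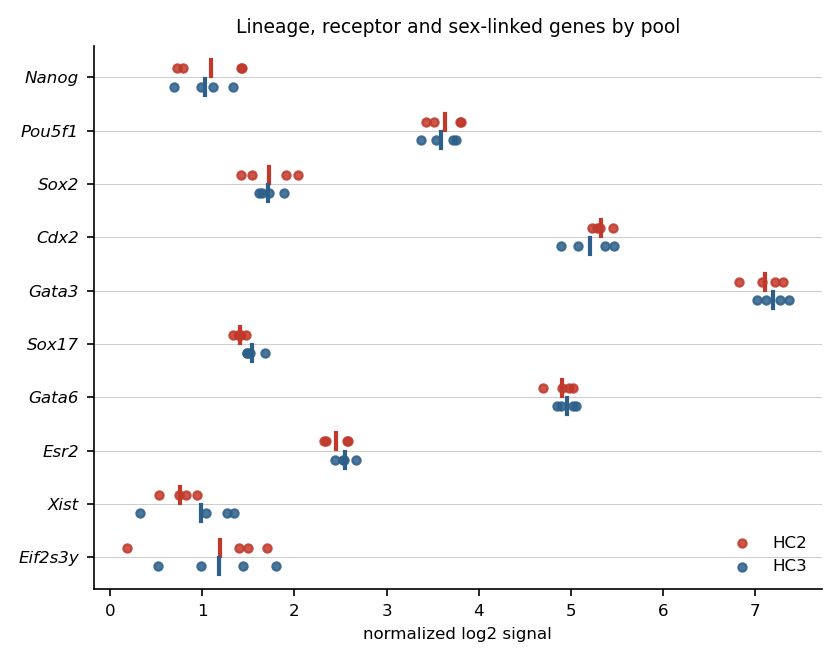
Normalized log2 signal (x axis) of lineage factors, of Esr2 and of the sex-linked Xist and Eif2s3y (y axis), with HC2 above HC3 for each gene. A dot is a pool and a bar the mean of 4 pools. The dots of both codes share one range for each gene but Sox17, whose HC3 pools lie at 1.48 and above.

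Of the estrogen receptor genes, Esr2 was the one with a probe well above background on all 8 arrays. Its signals were 2.58, 2.32, 2.58 and 2.34 in the HC2 pools and 2.67, 2.54, 2.44 and 2.53 in the HC3 pools, overlapping, with a difference of -0.09 and an interval of -0.32 to 0.14. The second Esr2 probe was not well above background on any of the 8 arrays. Of 7 Esr1 probes, 1 was well above background on 1 HC2 array and none on an HC3 array, and the Gper1 probe on 0 of 8.

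Among 20 tested estrogen receptors and coregulators, 7 were higher in HC2 and 13 lower, with a median of -0.02. Among 15 tested genes known to respond to estrogen, 10 were higher and 5 lower, with a median of 0.13. Within that list the clearest value went the other way. Ccnd1, the cyclin D1 gene, had -2.23, -1.89, -2.07 and -2.54 in the HC2 pools and -0.83, -1.79, -0.97 and -0.94 in the HC3 pools. All HC2 values were below all HC3 values, with HC3 pool 2 close to HC2, and the fitted difference was -1.05 with an interval of -1.69 to -0.41 (limma unadjusted p = 0.0027, adjusted p = 1). The Ccnd1 signals are dim, and the flag for a signal well above background was set on 3 HC2 arrays and on all 4 HC3 arrays. The score of the estrogen-responsive list, the mean deviation of its genes from their mean over the 24 arrays, was 0.07 to 0.09 in HC3 pools 1, 2 and 4 and -0.43 in HC3 pool 3.

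Across all genes, limma with Benjamini-Hochberg adjustment called 0 of 18448 genes (0.0%) between HC2 and HC3, and every adjusted p was 1. Without adjustment, 312 genes (1.69%) had a p under 0.05, 175 higher in HC2 (0.949%) and 137 lower (0.743%), where evenly spread p-values would give 922. The authors' deposited values, tested the same way, also gave 0 calls, with 400 genes at an unadjusted p under 0.05. The values of the codes did not overlap for 94 genes higher in HC2 (0.51%) and 121 lower (0.656%). The median standard error of a difference was 0.195, and for 79.6% of the genes the 95% interval lay within a 2-fold difference either way. On simulated arrays of 18448 genes, the same test recovered 60% of genes changed 2-fold between HC2 and HC3 and 28% of those changed 1.5-fold. At each fold tried, 50 genes were changed. The simulated noise was drawn independently for each gene and array, with no slide row effect. These shares describe that simulation and are not the power of the real comparison.

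Differences of over 1 on the log2 scale were found for 206 genes higher in HC2 (1.12%) and 104 lower (0.564%). Most lie at the edge of detection. Of the 206, 12 were well above background on all 8 arrays and 106 were not on any HC3 array, and of the 104 lower in HC2, 2 were above background on all 8 and 58 on no HC2 array. Few of them were shared by all pools of a code. Of the 206, 1 gene exceeded every HC3 pool by over 1 in all 4 HC2 pools, 23 in 3 pools, 75 in 2, 76 in a single pool and 31 in none. HC2 pool 2 carried 113 of these genes in that sense, pools 3 and 4 carried 71 each and pool 1 carried 44. In the opposite direction, HC3 pools 1 to 4 carried 26, 20, 29 and 28 of the 104.

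The position of an array on its slide was measured as an effect of its own, because the codes were not placed alike. A slide holds 8 arrays in 2 rows. HC2 pool 1 lay in row 1 and the other 3 HC2 pools in row 2, while HC3 pools 1 and 2 lay in row 1 and HC3 pools 3 and 4 in row 2. Over the 24 arrays and with the code in the model, limma called 2267 genes between row 2 and row 1 (12.3%), 569 higher in row 2 (3.08%) and 1698 lower (9.2%). With the array percentile taken over probes detected on all arrays the split was reversed, 689 higher and 517 lower. It kept its direction in the authors' deposited values, with 641 higher and 726 lower. It also did so with quantile normalization (410 higher, 788 lower) and with normexp and quantile normalization (499 higher, 1053 lower). The size of that imbalance thus varied with the scaling.

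Gene by gene, the deviations of HC2 pool 1 from its code's mean correlated across genes with those of HC3 pools 1 and 2, which share its row, at r = 0.27 each, and with those of HC3 pools 3 and 4, in the other row, at -0.29 and -0.21. HC2 pools 2 and 3, both in row 2, correlated at 0.15 to 0.16 with the HC3 pools of row 2 and at -0.16 to -0.18 with those of row 1. HC2 pool 4 did not follow its row: it correlated at 0.12 and 0.07 with the row 1 pools and at -0.06 and -0.12 with the row 2 pools. The deviations of a code's pools cancel out within each gene, so opposite signs across pools are partly built in. Genes are not independent replicates, and these values are a description. Among the 312 genes at an unadjusted p under 0.05 between HC2 and HC3, 18 (5.77%) were also called between rows, against 12.3% of all genes. Of the 312, 123 were well above background on all 8 arrays, against 14514 of all 18448, so these shares come from unlike sets of genes. With slide row as a block in the model, 312 of 312 kept their sign and 261 stayed at an unadjusted p under 0.05. These genes were chosen by p in the same data, and the block moves a difference by only part of the row effect. Keeping the sign is therefore no support for a difference between codes.

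**Figure D2:**
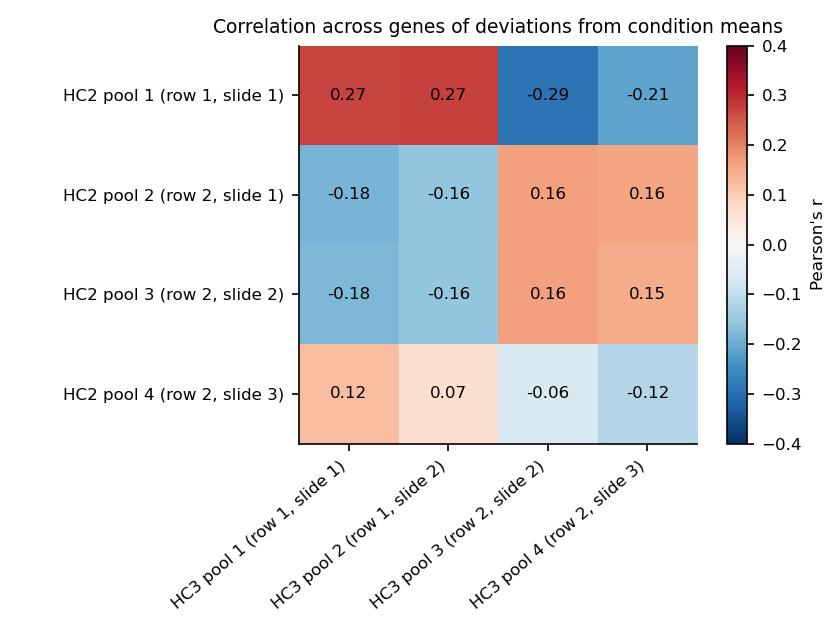
Pearson's r across genes between the deviations of each HC2 pool (rows of the grid) and each HC3 pool (columns) from the mean of their own code, with the slide row and slide of each array in its label. Red cells are positive and blue cells negative: HC2 pool 1 is red with the HC3 pools of row 1, HC2 pools 2 and 3 are red with those of row 2, and HC2 pool 4 is the reverse of its row.

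The genes of smallest p among those well above background on all 8 arrays are given as values, since none passed adjustment. Of the 12 named in each direction, 3 with a higher signal in HC2 and 5 with a lower one did not overlap between codes (1.17% of all genes did not overlap in either direction). The genes were picked by small p, so a larger share without overlap follows from the choice and is no result. The differences were modest for most of them, from 0.22 to 0.89 in the 10 higher genes other than Tmem199 and Ubqln4, and from -0.25 to -0.66 in the 12 lower ones.

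Armc7, an armadillo repeat gene, had the smallest p of the higher genes. Its signals were -1.36, -0.49, -0.42 and -1.48 in the HC2 pools and -1.67, -2.37, -1.60 and -1.67 in the HC3 pools. Every HC2 pool was above every HC3 pool, although HC2 pools 1 and 4 were above the nearest HC3 pools by little. The fitted difference was 0.89 with an interval of 0.34 to 1.43 (limma unadjusted p = 0.00277), and a second probe was above background on none of the 8 arrays.

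Tmem199, an assembly factor of the vacuolar proton pump, showed the largest difference in this set. It had 0.06, 3.92, 3.07 and 0.66 in the HC2 pools and 0.22, 0.07, -0.11 and 0.14 in the HC3 pools. HC2 pools 2 and 3 were over 2 log2 units above every other pool, HC2 pool 1 lay inside the HC3 range, and the codes overlapped. Its fitted difference of 1.85 (SE 0.62, limma unadjusted p = 0.00747) became -0.09 within slide row 1, which holds HC2 pool 1 and neither of the high pools, and 2.54 within row 2.

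Ubqln4, encoding a shuttle that carries ubiquitinated proteins to the proteasome, was also high in some HC2 pools only. Its signals were -1.51, 3.05, -1.91 and 0.50 in the HC2 pools and -1.26, -1.52, -2.29 and -1.33 in the HC3 pools. HC2 pools 2 and 4 were high, HC2 pools 1 and 3 lay within the HC3 range, and the difference was 1.64. The probe that reports it is shown because a second probe of the gene, also well above background on all 8 arrays, gave a difference of -0.02. It is the 60-base probe of the scanner files on the plus strand of chr3:88368391-88368946 (mm9), whose bases spread over 556 bases of genome and so cross an intron.
Ubqln4 probe: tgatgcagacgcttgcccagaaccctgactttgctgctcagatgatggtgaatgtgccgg

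Smaller but tighter differences came from genes with similar values in all pools of a code. Hpcal1, a neuronal calcium sensor, had 1.67, 1.70, 1.81 and 1.67 in the HC2 pools and 1.33, 1.56, 1.56 and 1.52 in the HC3 pools. No HC2 pool was as low as an HC3 pool, and the difference was 0.22, but its other 3 probes gave 0.00, -0.14 and 0.05. Napepld, the phospholipase that releases anandamide and related lipids, had 0.18, -0.08, 0.45 and 0.28 in the HC2 pools and -0.47, -0.10, 0.04 and -0.36 in the HC3 pools. HC2 pool 2 fell among the HC3 values, and the difference of 0.43 stood beside 0.54 for a second bright probe, so here both probes gave the same direction.

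Armcx5, an X-linked armadillo repeat gene, had 1.01, 0.85, 0.95 and 0.89 in the HC2 pools and 0.37, 0.84, 0.74 and 0.59 in the HC3 pools, which do not overlap, with a difference of 0.29. For other genes the result depended on the probe. Crbn, the substrate receptor of a ubiquitin ligase, differed by 0.77 on one bright probe and 0.11 on another. Usp46, a deubiquitinase, gave 0.47 and 0.04, and Ep300, a histone acetyltransferase and coactivator of nuclear receptors, gave 0.49 and -0.02. On its first probe Ep300 was at 0.92 in HC2 pool 2, against -0.01, -0.24 and 0.13 in HC2 pools 1, 3 and 4. That difference of 0.49 was 0.05 within slide row 1. The remaining higher genes were Cilp (0.44), Gpatch3 (0.60) and Itpka (0.36), an inositol trisphosphate kinase, each measured by a single probe.

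On the lower side, Dido1, encoding a chromatin reader, was the tightest. Its signals were 1.27, 1.36, 1.29 and 1.35 in the HC2 pools and 1.63, 1.73, 1.68 and 1.69 in the HC3 pools. The codes were apart by more than the range of either, and the difference was -0.36 (interval -0.64 to -0.08, limma unadjusted p = 0.0143). The other probes of Dido1 gave -0.35, 0.01, -0.23 and -0.23, the value of 0.01 being that of a probe as bright as the first.

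Ankrd24, an ankyrin repeat gene, had 1.36, 1.50, 1.32 and 1.51 in the HC2 pools and 1.89, 1.76, 1.66 and 1.80 in the HC3 pools. All HC2 pools were below all HC3 pools, and the difference was -0.36 (limma unadjusted p = 0.00825). Plaur, the receptor of the protease urokinase that trophoblast uses at the cell surface, had 0.97, 0.46, 0.98 and 1.19 in the HC2 pools and 1.45, 1.29, 1.30 and 1.33 in the HC3 pools. Again no pools overlapped, with HC2 pool 2 the lowest, and the difference was -0.44 with an interval of -0.80 to -0.09. Within slide rows 1 and 2 the Plaur difference was -0.40 and -0.44.

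Sh3rf1, a scaffold and ubiquitin ligase of the JNK pathway, and Cdadc1, a cytidine deaminase family gene, were the other lower genes without overlap. Sh3rf1 had -0.34, -0.28, -0.65 and -0.31 in the HC2 pools and -0.10, 0.10, 0.47 and -0.13 in the HC3 pools, a difference of -0.48. Cdadc1 differed by -0.58 on the probe used and by -0.13 on a second probe well above background on all 8 arrays. The values of the codes overlapped for the other 7 lower genes. These were Nab2 (-0.47), a corepressor of Egr factors, Fcor (-0.55), a corepressor of Foxo1, Dedd (-0.25), a death effector domain gene, Nat8f1 (-0.48), the dehydrogenase gene Dhrs7 (-0.66), the cytoskeletal gene Specc1l (-0.36) and the Schlafen gene Slfn9 (-0.63). A second bright Dedd probe gave 0.08.

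**Figure D3:**
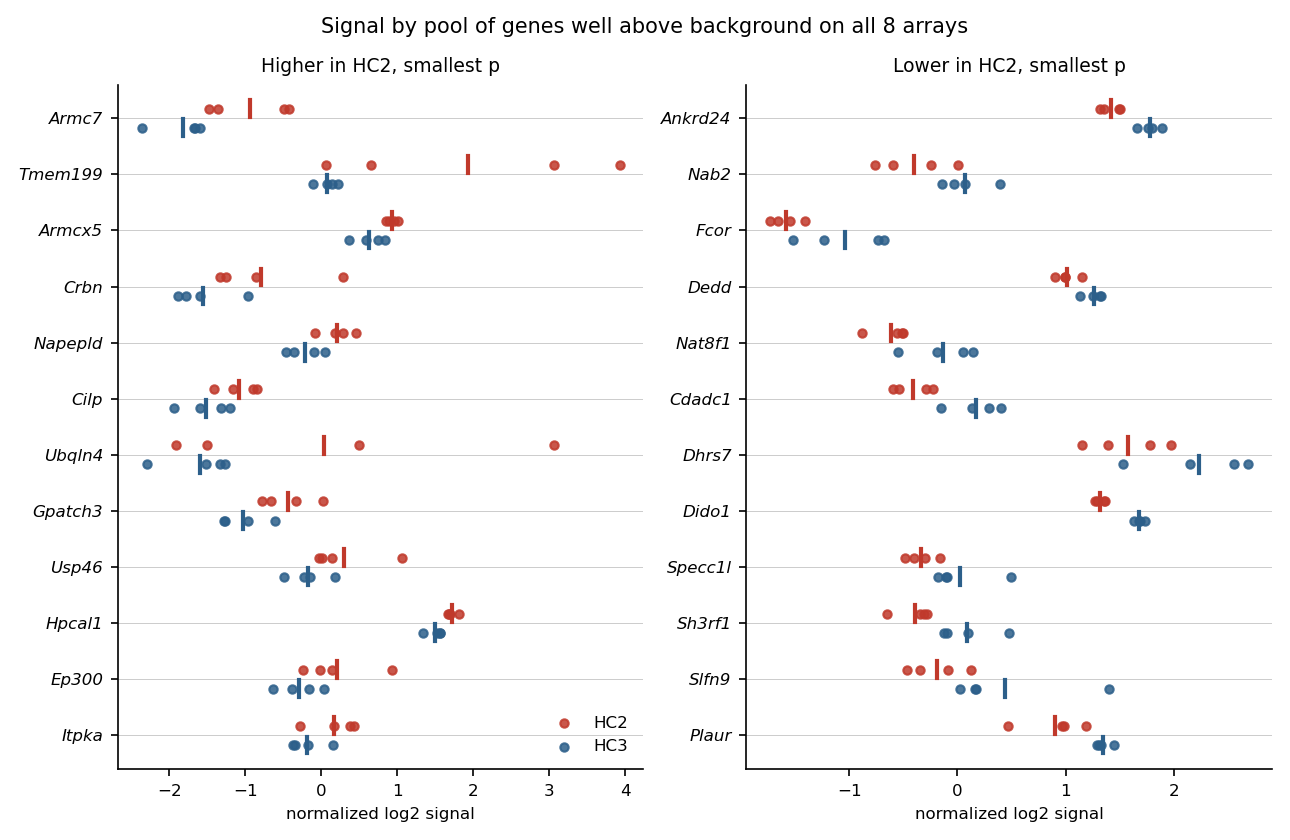
Normalized log2 signal (x axis) of the 12 genes of smallest p higher in HC2 (left panel) and the 12 lower (right panel), HC2 above HC3 for each gene. A dot is a pool and a bar the mean of 4 pools. Tmem199 shows 2 HC2 pools and Ubqln4 shows 1 above 3, while Ankrd24, Dido1 and Hpcal1 show close dots that do not overlap between codes.

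Genes well above background on all arrays of one code but none of the other were rare, 3 in HC2 and 2 in HC3, and 1 of each has an approved symbol outside the unnamed and multigene families. Spaca6, which encodes a sperm membrane protein needed for gamete fusion, had -1.20, -1.26, -2.03 and -2.32 in the HC2 pools and -2.55, -3.81, -3.04 and -4.32 in the HC3 pools. With the probe above background on every HC2 array and on no HC3 array, HC2 was at least 1.9-fold higher, a bound taken against the lowest signal called well above background on each HC3 array. The fitted difference was 1.73 (limma unadjusted p = 0.00161), but a second Spaca6 probe, above background on 2 arrays of each code, gave 0.11. The other probe was above background on 1 HC3 array only. Man1c1, a Golgi mannosidase, was well above background on 0 of 4 HC2 and 4 of 4 HC3 arrays and was at least 1.25-fold lower in HC2, with measured means of -3.01 and -2.28.

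Arpp21, a gene for a cyclic AMP-regulated phosphoprotein, had -2.00, 0.16, -1.57 and -2.06 in the HC2 pools and -2.98, -2.07, -2.51 and -3.48 in the HC3 pools. HC2 pool 2 was highest, HC2 pool 4 and HC3 pool 2 nearly met without overlap, and the difference was 1.39. Its other 5 probes were at background on all 8 arrays. Krt14, a keratin of stratified epithelia, had -2.54, -4.29, -3.87 and -1.89 in the HC2 pools and -0.87, 0.54, -2.35 and -2.33 in the HC3 pools. HC3 pools 1 and 2 were highest, the codes overlapped through HC2 pool 4, and the difference was -1.89 (limma unadjusted p = 0.038).

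Some other large values came from a single pool. Lhx4, a homeobox gene, was at 1.95 in HC3 pool 1 and between -2.37 and -2.04 in the other HC3 pools, with a difference of -1.16, and Cpsf4l, related to an RNA cleavage factor, was at 2.74 in HC3 pool 2 and between -1.06 and -0.68 in the other HC3 pools, with a difference of -1.04. Pde6a, a phosphodiesterase of photoreceptors, differed by 2.06, in part through a signal of -4.80 in HC3 pool 3, and the difference was -1.27 within slide row 1 and 4.31 within row 2. Oxct2b differed by -1.14 and Ccnd2, the cyclin D2 gene, by -1.18 with overlapping codes. For both cyclin D genes the HC2 mean was the lower one, and other Ccnd2 probes were at background. The potassium channel gene Kcnk16 was well above background on 2 HC2 and 0 HC3 arrays, a bound of at least 1.35-fold higher. For the kinase gene Wnk4, above background on 0 HC2 and 3 HC3 arrays, the bound was at least 1.66-fold lower in HC2, and a second probe was above background on 2 HC2 and 0 HC3 arrays. Both bounds take the measured mean of the bright code, which includes arrays at background, so they are not strict limits.

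Nsg2, a neuronal vesicle protein gene, had -4.38, -3.53, 1.73 and 0.54 in the HC2 pools and -4.95, -4.55 and -4.75 in HC3 pools 1, 2 and 4. HC2 pools 3 and 4 were high and the others near the bottom of the scale, a fitted difference of 3.34 (limma unadjusted p = 0.0031). The HC3 pool 3 spot carried a non-uniformity flag and was left out of that fit, yet it was well above background. With such spots kept the difference was 1.88 (limma unadjusted p = 0.199). The other 2 Nsg2 probes were above background on 0 of 24 arrays.

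Some genes of the 2-cell stage were bright in some HC2 pools only, in sets of pools that differed between genes, and none passed adjustment. Of 22 genes on the list, 21 were on the array, 13 were tested and 4 were well above background on all 8 arrays. Of the 13, 7 would fail the background filter without the HC2 arrays and 1 without the HC3 arrays, so a count over the 13 is no support for a direction. As a description, 11 were higher in HC2 and 2 lower, the median difference was 0.96 against -0.02 over all genes, and 3 were at an unadjusted p under 0.05 (0.949% of all genes were so in that direction). With probes well above background on all 8 arrays the median was 0.16. The list's score, the mean deviation of its genes from their mean over the 24 arrays, was 1.51, 1.30, -0.20 and 0.63 in the HC2 pools and -0.50, -0.69, -0.62 and -0.29 in the HC3 pools. HC2 pools 1, 2 and 4 were above every HC3 pool and HC2 pool 3 was above each by less than 0.5. The list was known from earlier results of these arrays to vary between pools, so its direction here is a description.

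Stretches of promoters of list genes are printed because the near-identical Zscan4b and Zscan4f were high in the same pools. Usp17la was high in a set of pools that matched theirs only in part. Zfp352 is shown as a list gene above background on all 8 arrays. They are the 70 bases before the start site in RefSeq (GRCm38.p6), with TATAAA, the classical TATA motif, in capitals where it occurs in the printed strand.
Zscan4b: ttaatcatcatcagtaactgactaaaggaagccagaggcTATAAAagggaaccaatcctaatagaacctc
Zscan4f: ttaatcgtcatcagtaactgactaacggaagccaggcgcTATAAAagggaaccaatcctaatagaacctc
Usp17la: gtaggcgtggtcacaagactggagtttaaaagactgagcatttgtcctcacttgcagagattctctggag
Zfp352: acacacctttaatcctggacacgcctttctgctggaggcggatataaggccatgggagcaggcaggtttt

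These stretches lie at chr7:10905051-10905120 on the minus strand for Zscan4b, chr7:11397845-11397914 on the plus strand for Zscan4f, chr7:104856946-104857015 on the plus strand for Usp17la and chr4:90218750-90218819 on the plus strand for Zfp352. In both Zscan4 promoters the motif begins 31 bases before the start site. Over 300 bases, from 250 before to 50 after the start site, the promoters of Zscan4b and Zscan4f shared 287 bases (95.7%). Promoters of list genes on chromosome 18 were left out. The motif, searched on both strands, occurred in 4 of 10 promoters of the 9 list genes that remained, and in 13.6% of all 32851 promoters of that length. The 4 were those of Zscan4b, Zscan4f, Usp17lc and Usp17ld, relatives within the Zscan4 and Usp17l families. They are not independent, so these shares cannot show an excess. A match is a description of these letters only.

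Zscan4b, one of a family of zinc finger genes that mark the 2-cell state, had -0.36, -3.35, -5.04 and -0.85 in the HC2 pools and -5.16, -4.85, -5.07 and -5.05 in the HC3 pools. HC2 pools 1 and 4 were high, HC2 pool 2 slightly raised and HC2 pool 3 at the level of the HC3 pools, which were all at background. With 2 HC2 arrays and 0 HC3 arrays well above background, the measured HC2 mean, arrays at background included, was at least 1.23-fold higher. The fitted difference was 2.63 (limma unadjusted p = 0.0495). Zscan4f followed it with -0.38, -3.21, -4.87 and -0.92 in the HC2 pools and a bound of at least 1.28-fold. Zscan4a was highest in the same pools, at -1.18 and -2.75, but its mean gives no fold above background. Zscan4c was above background on 1 HC2 and 0 HC3 arrays and Zscan4d on none of the 8. Probes of such close copies may each detect more than one of them, so these are not separate measurements.

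Usp17la, a member of a family of deubiquitinases expanded in the mouse, had 0.02, 0.91, 1.36 and -4.90 in the HC2 pools and -3.14, -3.44, -4.32 and -4.64 in the HC3 pools. Here HC2 pools 1, 2 and 3 were high and HC2 pool 4 the lowest of the 8. The probe passed background on 3 HC2 arrays and on 0 HC3 arrays, a bound of at least 4.13-fold, with a fitted difference of 3.23 (limma unadjusted p = 0.0138). Tcstv3, of a 2-cell family with no role assigned here, had 2.50, 1.93, -2.08 and -0.18 in the HC2 pools and -2.47, -4.27, -3.07 and -1.99 in the HC3 pools. HC2 pools 1 and 2 were high, HC2 pool 3 overlapped HC3, and the difference was 3.49 (SE 1.37). Of the Usp17la relatives, Usp17lc was above background on 2 HC2 and 0 HC3 arrays, at least 1.5-fold higher in the measured mean. Usp17le, above background on 1 HC2 and 0 HC3 arrays, gives no fold, and Usp17ld, on 2 HC2 and 1 HC3 arrays, differed by 0.61 with overlap.

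The 4 list genes above background on all 8 arrays differed little. Zfp352, a zinc finger gene copied from RNA, had 1.25, 1.86, 0.72 and 1.00 in the HC2 pools and 0.98, 0.57, 0.66 and 1.15 in the HC3 pools, with overlap and a difference of 0.37 (SE 0.25). Pramel11 differed by 0.42, Eif1a by -0.07 and Sp110 by -0.04. The list median was 0.68 with slide row as a block, 1.33 within row 1 and 0.56 within row 2. It was 0.36 without HC2 pool 2 and 1.58 without HC2 pool 3, and -0.09 within slide 2, where HC2 pool 3 stands alone for its code. Over all genes the median within slide 2 was -0.08.

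**Figure D4:**
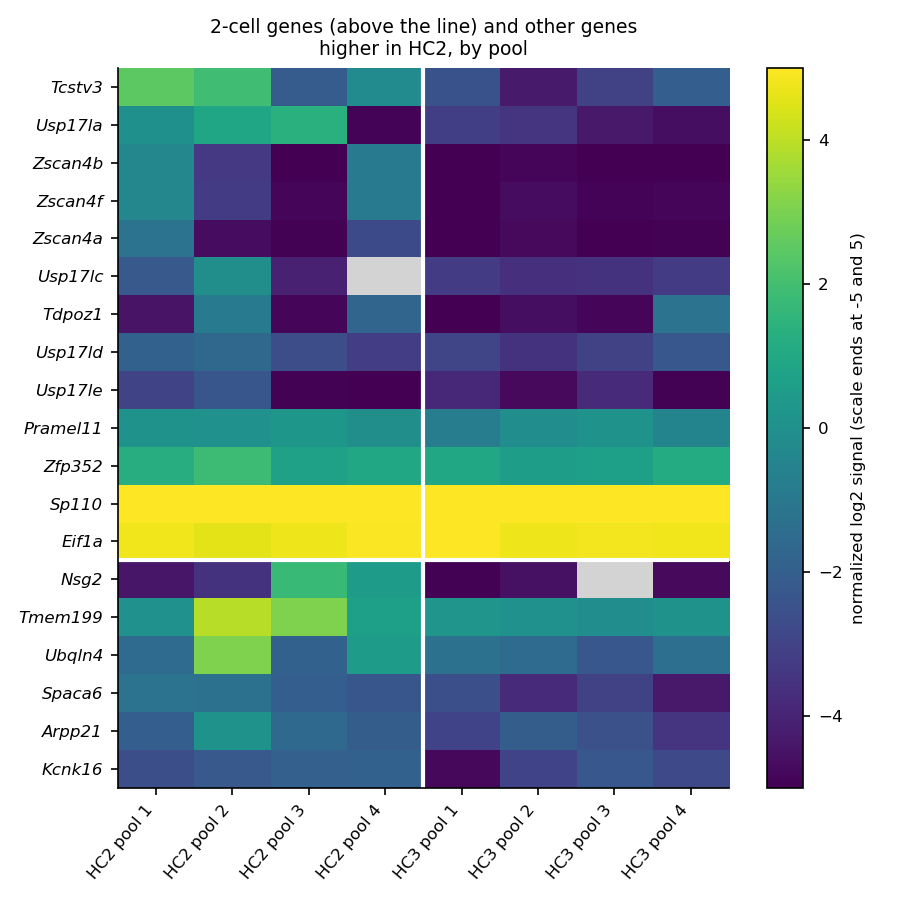
Normalized log2 signal (colour, from -5 to 5) of the 13 tested 2-cell genes above the white line, ordered by difference, and of 6 other genes higher in HC2 below it, in the 4 HC2 pools (left) and the 4 HC3 pools (right). Grey cells are values left out. Bright cells fall in HC2 pools 1 and 4 for Zscan4b, in 1, 2 and 3 for Usp17la and in 2 and 3 for Tmem199.

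Heat shock chaperones, which refold damaged proteins, were mostly lower in HC2 by small amounts. Of 27 tested, 2 were higher and 25 lower, but the median difference was only -0.08. It was -0.04 with slide row as a block, 0.02 within row 1 and -0.07 within row 2. Over all genes these medians were -0.001, 0.02 and -0.01, so the small shift was absent within row 1. Hspb1, a small chaperone, had 5.84, 5.88, 5.68 and 6.04 in the HC2 pools and 6.36, 6.21, 5.80 and 6.07 in the HC3 pools, overlapping, with a difference of -0.25. Hspa1a, the inducible Hsp70, ranged widely, with 0.70, -2.15, -3.27 and 0.31 in the HC2 pools and -0.29, -0.56, -1.64 and 0.72 in the HC3 pools. HC2 pools 2 and 3 were low, and the difference of -0.66 had an interval of -2.92 to 1.60.

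Stress genes of the amino acid and integrated stress response had 20 of 29 higher in HC2 and a median of 0.06, which was -0.001 with slide as a block, -0.03 within slide row 1 and -0.36 within slide 1. Ddit4, a stress-induced inhibitor of the growth kinase mTORC1, was the clearest. It had 5.29, 5.14, 5.36 and 5.59 in the HC2 pools and 4.86, 4.81, 4.84 and 4.93 in the HC3 pools. All HC2 pools were above all HC3 pools, the HC3 values lay within 0.12 of each other, and the difference was 0.48 with an interval of 0.05 to 0.92 (limma unadjusted p = 0.031, adjusted p = 1). It was 0.45 within slide row 1 and 0.48 within row 2. Vegfa, an angiogenic growth factor also on the list, differed by 0.43 with overlap, but by -0.005 in the authors' deposited values and 0.04 with normexp and quantile normalization. Atf3 differed by -0.42, and the list median was 0.04 with slide row as a block.

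Lists of energy metabolism had medians near 0. Of 43 oxidative phosphorylation genes, all well above background on all 8 arrays, 9 were higher and 34 lower in HC2, with a median of -0.03 and a range of -0.12 to 0.08. Sdhb, a subunit of complex II, differed by -0.10 and Ndufb9, of complex I, by -0.09. Glycolysis genes split into 12 higher and 14 lower with a median of -0.03 and a wider range, -1.02 to 0.41. Pfkfb3, which makes the activator of phosphofructokinase, was above background on 0 HC2 and 3 HC3 arrays, at least 1.61-fold lower in HC2 against the measured HC3 mean. Cholesterol synthesis genes split into 9 higher and 13 lower with a median of -0.01, although the median was 0.20 within row 1 and -0.10 within row 2.

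Signalling lists also leaned towards lower values, by little. BMP and Nodal genes were 7 higher and 23 lower with a median of -0.06, FGF and ERK feedback genes 5 higher and 18 lower with a median of -0.05, and basement membrane and matrix genes 6 higher and 19 lower with a median of -0.09. Within slide row 1 the medians of the BMP and matrix lists were 0.02 and 0.03, against 0.02 over all genes. These lists therefore lay near all genes there. Each of the 40 lists with 10 or more tested genes had medians of both signs over the 30 alternatives tried. The median over all genes itself ran from -0.08 within slide 2 to 0.08 within slide 3. For a list with a small median, taking both signs is thus no result about the list. The receptors Fgfr4 and Fgfr1 differed by -0.26 and -0.16, the ERK phosphatase Dusp6 by -0.15, and the BMP effector Smad1 by -0.16, all with intervals that include 0. WNT genes went the other way in number, 16 higher and 6 lower, with a median of 0.02. The WNT coreceptor Lrp6 was against that trend, with 1.52, 1.36, 1.44 and 1.59 in the HC2 pools and 1.75, 1.53, 1.76 and 1.91 in the HC3 pools and a difference of -0.26 (limma unadjusted p = 0.0354).

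Among 29 implantation and hatching genes, 14 were higher and 15 lower with a median of 0.00, and Plaur and the implantation serine protease gene Prss28 (-0.32) were the 2 at an unadjusted p under 0.05, both lower in HC2 (0.743% of all genes were so in that direction). Lipid droplet genes were 14 higher and 8 lower with a median of 0.04. Plin1, which coats lipid droplets, was above background on 3 HC2 and 0 HC3 arrays, at least 1.46-fold higher in the measured mean, with a fitted difference of 1.22. Pparg, a nuclear receptor of lipid storage, differed by 1.10 with 1 HC3 value left out for an outlier flag and by -0.34 with such spots kept. Steroid hormone synthesis genes were 12 higher and 4 lower with a median of 0.03, and 29 targets of p53 were 8 higher and 21 lower with a median of -0.06.

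**Figure D5:**
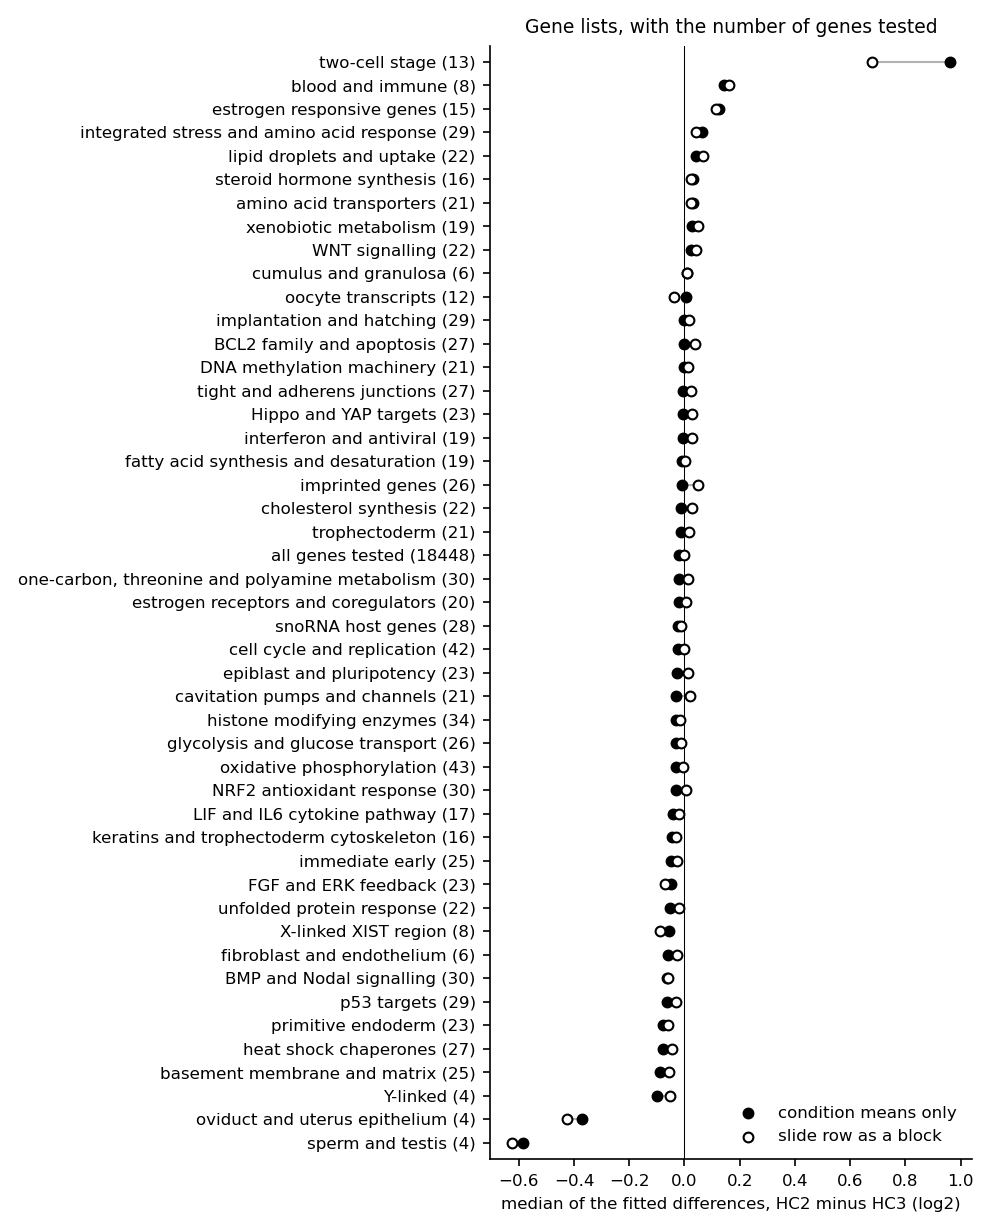
Median of the fitted differences, HC2 minus HC3 (x axis, log2), for the gene lists other than small nucleolar RNAs (y axis, number of genes tested in brackets), from the model with code means (filled) and with slide row as a block (open). All plotted lists of 10 or more tested genes but the 2-cell list lie between -0.09 and 0.13, and the lowest lists, of sperm and oviduct genes, have 4 tested genes each.

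The defining markers of other cell types that could travel with an embryo had summed signals that overlapped between codes, and their part in the differences above was not tested. Of 6 cumulus and granulosa markers, 1 was above background on all 8 arrays and Inha, Amh and Fshr on none, and their summed signal, in multiples of the array's 75th percentile, was 24.1 to 55.5 in HC2 and 29.6 to 47.8 in HC3, carried by Foxl2. For 5 fibroblast and endothelium markers the sum was 0.308 to 0.691 in HC2 and 0.419 to 0.631 in HC3, with Col1a2 and Col3a1 above background on 0 of 8. For 3 sperm markers it was 0.467 to 0.827 in HC2 and 0.537 to 1.35 in HC3, with Tnp1 on 0 of 8. Blood and immune markers, 3 of 4 above background on all 8 and Lyz2 on none, summed to 10.9 to 19.9 in HC2 and 11.7 to 18.4 in HC3. That sum was carried by the brightest of 7 Ptprc probes. Oviduct markers summed to 0.105 to 0.219 in HC2 and 0.162 to 0.286 in HC3, with Pax8 and Foxj1 on 0 of 8.

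The longer lists for the oviduct and for sperm had lower scores in some or all HC2 pools. For oviduct and uterus epithelium, 4 of 10 genes were tested and all 4 were lower in HC2, with a median of -0.37 that stayed below 0 in all 30 alternatives. Its score was -0.16, -0.45, -0.17 and -0.33 in the HC2 pools and 0.29, 0.16, 0.26 and 0.06 in the HC3 pools, which do not overlap. Ovgp1 (-1.12), the oviduct glycoprotein gene, was above background on 0 HC2 and 2 HC3 arrays, and its mean gives no fold above background. Msx1 (-0.54), a homeobox gene not particular to that tissue, was above background on all 8. Wfdc2, another of the 4, differed by -0.01 and was above 0 in 10 of the 30 alternatives. Foxa2, the last of the 4, differed by -0.20 with overlap. The oviduct markers Pax8 and Foxj1 were above background on 0 of 8 arrays. Many lists were scored without a test, so this score describes its 4 genes and is no measure of oviduct material. For sperm and testis, 4 of 10 genes were tested, 3 of them lower in HC2, with a median of -0.59. Its score was -0.61, 0.34, -0.72 and -0.32 in the HC2 pools and 0.08, 0.42, 0.69 and -0.30 in the HC3 pools, with overlap.

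Sex-linked RNA, a measure of how many male and female embryos a pool held, overlapped between codes. Xist, which silences an X chromosome in female embryos, had 0.75, 0.83, 0.53 and 0.94 in the HC2 pools and 0.32, 1.27, 1.04 and 1.34 in the HC3 pools. The HC3 pools spanned the wider range, and the difference was -0.23 with an interval of -1.13 to 0.67. Eif2s3y, a Y-linked translation factor gene, had 1.50, 0.18, 1.40 and 1.70 in the HC2 pools and 1.80, 0.99, 1.44 and 0.53 in the HC3 pools. HC2 pool 2 and HC3 pool 4 were low, and the difference was 0.01.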

How the data were processed

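Scanner output from Agilent Feature Extraction 10.10.1.1 was deposited for each array. Per the file headers, the intensity used here had local background removed and a spatial trend taken out, with a surrogate in place of values that were too low. The authors' deposited log2 values cover 27101 probes. They rise with each array's own scanner values and share a scale, with a median of 7 to 7.01 on each array and slopes of 0.757 to 0.793 against the scanner log2 signals, and their normalization is not given in the sources used here. They were used as an alternative. The submitters' processing notes also name limma.

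Control spots and spots with an outlier flag were left out, and the 75th percentile of the log2 processed signal over an array's probes was subtracted. Of 56605 probes, 27144 passed the scanner's background flag on 4 or more of the 24 arrays; the brightest per gene represented 18448 genes, including features with no symbol. Symbols came from the files, and 1517 probes were named by accession and 519 by synonym through the gene annotation of RefSeq, while 12869 kept the file's name. Probe coordinates are mm9 and promoter coordinates GRCm38.p6, from RefSeq.

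One model with 6 code means was fitted to all 24 arrays in limma 3.58.1 (R 4.3.3) with eBayes and Benjamini-Hochberg adjustment at 0.05. The row contrast had slide row added. Python 3.11.15, numpy 2.4.6, pandas 2.3.3, matplotlib 3.10.9 and data.table version 1.17.8 were used. Simulated data tested the code. A bound ("at least") sets the bright code's mean against the lowest signal called well above background on each array of the dim code, or its own value if higher. Arrays of the bright code at background enter that mean as measured. Where there are such arrays, the bound is about the measured mean, not about each pool, and is no strict limit.

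Gene lists and the naming rule were chosen with earlier results of these arrays known. The rule names the 12 higher and 12 lower genes of smallest p that were well above background on all 8 arrays, the 6 largest differences each way among genes above background on all 4 arrays of a code, genes on in one code only, up to 4 genes of smallest p per list with its defining members, and fixed lineage, receptor and sex-linked genes with the Zscan4 family, Nsg2, Snora78, Kcnk16 and Wnk4; features without a symbol and multigene families are not named, apart from 2-cell genes.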

Additional observations from a re-analysis of the deposited data

Results flagged for a closer look

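Groups of 4 pools were made for named genes other than those named only for a list, for list scores and for array-level measures. Genes at background were among them. In 203 such groups, 1 pool stood apart in 11. Its gap to the nearest other pool, as a share of the group's range, was then over Dixon's 95% critical value for 4 values. Chance flags about 1 in 20 such groups. In HC2, Nat8f1 was at -0.88 in pool 2 against -0.56 to -0.50 in the others, and Usp46 at 1.06 in pool 3 against -0.03 to 0.14.

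In HC3 pool 2, Armc7 was at -2.37 against -1.67 to -1.60 in the other HC3 pools, Ccnd1 at -1.79 against -0.97 to -0.83, and Cpsf4l at 2.74 against -1.06 to -0.68. In HC3 pool 1, Lhx4 was at 1.95 against -2.37 to -2.04. In HC3 pool 3, Slfn9 was at 1.4 against 0.02 to 0.17, Sox17 at 1.68 against 1.48 to 1.51, and Specc1l at 0.5 against -0.18 to -0.10. The same pool had a score of -0.43 for estrogen responsive genes, against 0.07 to 0.09 in the other HC3 pools, and of 0.15 for cavitation pumps and channels, against -0.19 to -0.14.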

How the results depend on the processing

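No gene passed adjustment between HC2 and HC3 in any alternative tried. The number at an unadjusted p under 0.05, 312, was 852 with no filter on dim probes, 137 with genes well above background on all 8 arrays, 508, 753 and 601 within slides 1, 2 and 3, and 578 within slide row 1, where a code's lone pool is assumed to vary like the rest; leaving out single pools gave 293 to 440. Same-numbered HC2 and HC3 pools had deviations correlating at 0.27, -0.16, 0.16 and -0.12. These values also carry slide row, so they cannot show whether the numbers pair the pools. A replicate block gave 351 genes and 0 calls. The 2267 genes called between slide rows became 1198 with quantile normalization, 1206 with a percentile over detected probes, 1367 in the authors' table, 504 with no filter and 4716 with array weights, and 1222 without HC2 pool 1 to 3273 without HC2 pool 4 when single pools were left out. The 2-cell median of 0.96 was 0.26 with normexp and quantile normalization, 0.37 and 0.16 with probes well above background on at least 4 and on all 8 arrays, 2.08, -0.085 and 0.28 within slides 1, 2 and 3, and 0.36 to 1.58 when single pools were left out. Of 44 named genes at an unadjusted p under 0.05, 14 took the opposite sign in some alternative. Signs reversed within slide 3 for Ahrr (0.28), Krt14 (0.45), Nat8f1 (0.039), Plin1 (-0.71) and Usp17la (-0.26). They reversed with normexp and quantile normalization for Dido1 (0.02), Spaca6 (-0.005) and Wnk4 (0.12), where the brightest probe was chosen anew, with the mean of probes for Ep300 (-0.19), and with outlier spots kept, an alternative added after seeing the data, for Pparg (-0.34). They also reversed within slide row 1 for Tmem199 (-0.091), Ubqln4 (-0.12) and Usp46 (-0.002) and within slide 2 for Ubqln4 (-0.003) and Zscan4b (-0.085). Of the other 172 named genes, 133 took both signs, among them Pde6a (-1.27) and Lipe (0.54) within slide row 1, Zscan4f (-0.085) within slide 2, and Ccnd2 (0.35) and Cpsf4l (0.31) within slide 3. Apart from the choice of probe, the cause was not tested. Of 6392 values over 216 genes, 6138 kept their sign (genes at an unadjusted p under 0.05) or moved by less than the spread between pools (the others); of 1440 list medians, 1350 moved by less than that spread.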

Other observations

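The largest differences of all came from features outside the naming rule, named here after their values were seen. Gm4340, a predicted gene on chromosome 10, had 1.96, 5.27, -4.36 and -0.08 in the HC2 pools and -5.04, -4.72, -3.72 and -3.98 in the HC3 pools. HC2 pools 1, 2 and 4 were high and HC2 pool 3 lay within the HC3 range. No HC3 array was above background. The measured HC2 mean, with pool 3 included, was at least 10.5-fold higher, which does not hold for pool 3 itself. Btbd35f13, of an X-linked multigene family, had -4.33, -0.86, 2.59 and -0.28 in the HC2 pools and -4.95, -4.52, -3.82 and -4.70 in the HC3 pools, so that HC2 pools 2, 3 and 4 were high, at least 3.94-fold over HC3 in the mean. In the opposite direction, Crb1, a cell polarity gene, had -4.43, -4.53, -3.10 and -5.05 in the HC2 pools and -4.96, -4.61, 1.80 and 1.50 in the HC3 pools. It was above background in HC3 pools 3 and 4 only, and the bound against the measured HC3 mean was at least 2.08-fold lower in HC2.

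Small nucleolar RNAs, which guide the modification of ribosomal RNA, were 3 higher and 9 lower in HC2 of 12 tested by symbol, with a median of -0.22. It was 0.25 within slide row 1 and -0.32 within row 2, so the sign depended on the row. Snora34 had 0.10, -1.50, -2.12 and -0.53 in the HC2 pools and 0.50, -0.38, -0.86 and 0.44 in the HC3 pools, with overlap and a difference of -0.94 (SE 0.62). Snora78 differed by 0.22 with overlap.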
